A study of Mus musculus with 104 samples.

Results

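Arginine and polyamine metabolism was followed through 7 genes, Arg1, Arg2, Nos2, Ass1, Asl, Odc1 and Sat1, taken by gene symbol from 8 tables of transcript levels that each list 24940 genes. All 7 symbols were found in all 8 tables, which together hold 104 libraries in 47 groups of mouse liver macrophages, monocytes, liver endothelial cells and cultured marrow cells. Levels are in TPM, a length-scaled share of the transcripts in a library, so levels of different genes can be compared within a library.

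Arginine stands at a branch point of macrophage metabolism. The arginases, cytosolic Arg1 and mitochondrial Arg2, split it into urea and ornithine, while the inducible nitric oxide synthase Nos2 turns it into nitric oxide and citrulline. Argininosuccinate synthase, Ass1, and argininosuccinate lyase, Asl, remake arginine from citrulline. Together with Arg1 these enzymes are part of the urea cycle of hepatocytes, where they are abundant. Ornithine decarboxylase, Odc1, commits ornithine to the polyamines putrescine, spermidine and spermine, and spermidine/spermine N1-acetyltransferase, Sat1, marks polyamines for breakdown or export.

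The study asked which liver signals turn a monocyte into a Kupffer cell, the resident macrophage of the liver sinusoid. In the niche-refilling experiment, diphtheria toxin removes Kupffer cells from Clec4f-cre/Rosa26iDTR mice, in which Clec4f-driven Cre switches on a toxin receptor, and the monocytes that fill the empty niche are called repopulating liver macrophages. Collection was 12, 24, 48, 72, 168 and 336 h after toxin (2, 3, 2, 2, 3 and 3 libraries), beside Kupffer cells of the same strain given PBS 72 h before (3 libraries) and Ly6C-high blood monocytes of C57BL/6J mice (4 libraries). The other experiments delete a regulator, block Notch signalling in the animal, or give niche signals in culture.

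The deletion groups were Nr1h3 flox/flox TIM4+ Kupffer cells as controls, and TIM4+ and TIM4- cells of Nr1h3 flox/flox mice with 1 Clec4f-cre allele (2 libraries each). With them came Nr1h3 wild-type and knockout bone marrow-derived macrophages (BMDMs) cultured for 7 days (2 each). Smad4 flox/flox Kupffer cells (2) were set beside Smad4 flox/flox Clec4f-cre cells whose titles carry the tags t4p (3) and t4n (2). BMDMs of Smad4 flox/flox mice, control or knockout, were cultured for 4 days and given nothing, TGF-beta, the Notch ligand DLL4, DLL4 with the Notch inhibitor DAPT, or DLL4 with TGF-beta for 24 h (2 each). The knockout BMDMs are labelled Clec4f-cre where the series description names LysM-cre. C57BL/6J BMDMs were given nothing, DLL4, the synthetic sterol LXR ligand DMHCA, DLL4 with TGF-beta, or all 3 at 24 h, and the same without the DMHCA-only arm in a 6-day culture titled 72 h (2 each). Marrow monocytes of male C57BL/6J mice, cultured for 2 days, were given nothing, DLL4, the natural LXR ligand desmosterol, DLL4 with TGF-beta, or all 3 for 48 h (2 each). Repopulating liver macrophages 24 h after toxin came from animals dosed with LY411575, which blocks the gamma-secretase step of Notch signalling (3), or from their controls (2), described as fasted females, and from mice given antibodies to DLL1 and DLL4 (4) or their controls (2), described as fasted males. C57BL/6J liver cells were sorted as STAB2 low, intermediate or high (2 each). No label says that replicates came from separate animals or cultures, so p-values measure the spread between these libraries, which may be technical.

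Recovered depth was 7830287 to 27776241 exon reads per library. The Nr1h3 libraries labelled knockout from the liver held 341 to 422 TPM of Nr1h3 against 393 and 409 in controls, so the deletion is not visible in that gene's level, whereas knockout BMDMs held 8.05 and 8.81 TPM against 41.9 and 43.3. Smad4 was 13.7 to 21.5 TPM in libraries labelled Smad4 knockout Kupffer cells against 33.4 and 35.7 TPM in controls. STAB2-sorted cells summed to 8334 to 20660 TPM over 12 liver endothelial markers and to 49.4 to 75.4 TPM over 7 macrophage markers, whereas the refilling, Nr1h3, Smad4 Kupffer cell and Notch blockade libraries held 6210 to 33910 TPM over the macrophage markers. All liver macrophage libraries carried hepatocyte RNA: all 15 hepatocyte markers were above 0, with sums of 257 to 6504 TPM, against 3.04 to 5.76 TPM in blood monocytes, where 8 to 12 of the 15 were at 0. Smad4 and C57BL/6J BMDMs of 4 to 6 days also held 308 to 8851 TPM over 10 neutrophil markers.

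Which reads belong to which member bears on the values, and 2 stretches of sequence show why the Ass1 level is the least sure. Arg1 lies at chr10:24915207-24927470 on the minus strand of mm10, Arg2 at chr12:79130788-79156301 on the plus strand, Ass1 at chr2:31470270-31520670 on the plus strand, Asl at chr5:130011258-130024381 on the minus strand, Odc1 at chr12:17544873-17551502 on the plus strand and Sat1 at chrX:155213126-155216449 on the minus strand. Nos2 starts at chr11:78920787 and ends at 78960226 on the plus strand in 6 of the 8 tables. The coding sequences of Arg1 and Arg2 were 67.0% identical with no identical run over 12 bases, and Sat1 and its relative Sat2 were 62.4% identical with no run over 14 bases. Ass1 has a processed pseudogene, Gm5424, on chromosome 10 that differed from its coding sequence at 6 of 1236 bases, with an identical run of 398 bases. The windows below are the same stretch of both on GRCm38, the assembly behind mm10, at chr2:31488578-31488637 and chr10:62071543-62071602, both plus strand, with the single differing base in capitals.
Ass1 window: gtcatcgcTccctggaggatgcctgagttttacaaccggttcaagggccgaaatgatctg
Gm5424 window: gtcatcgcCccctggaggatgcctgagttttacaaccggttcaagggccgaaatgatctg
The deposited tables place an entry named Gm5424 over the Ass1 gene, and it carried 89.17 to 100% of the Ass1 reads in every library. Ass1 values below are therefore uncertain as to how reads shared with the copy were counted.

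Upstream sequence was held for 3 members, Ass1, Odc1 and Sat1, each of which held called differences in culture. The 250 bases before each annotated start are printed from RefSeq (GRCm38.p6), 5′ to 3′ on the gene's strand, with matches to any of 5 short motifs in capitals.
Ass1 upstream: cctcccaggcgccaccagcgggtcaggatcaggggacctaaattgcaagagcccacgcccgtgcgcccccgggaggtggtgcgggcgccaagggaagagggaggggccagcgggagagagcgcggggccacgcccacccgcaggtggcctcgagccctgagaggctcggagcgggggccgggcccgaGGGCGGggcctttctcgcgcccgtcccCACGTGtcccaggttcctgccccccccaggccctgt
Odc1 upstream: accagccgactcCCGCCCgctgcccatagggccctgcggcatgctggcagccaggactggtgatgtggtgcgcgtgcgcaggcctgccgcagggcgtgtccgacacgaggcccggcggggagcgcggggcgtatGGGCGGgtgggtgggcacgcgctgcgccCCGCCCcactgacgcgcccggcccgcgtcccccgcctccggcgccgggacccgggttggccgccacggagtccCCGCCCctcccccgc
Sat1 upstream: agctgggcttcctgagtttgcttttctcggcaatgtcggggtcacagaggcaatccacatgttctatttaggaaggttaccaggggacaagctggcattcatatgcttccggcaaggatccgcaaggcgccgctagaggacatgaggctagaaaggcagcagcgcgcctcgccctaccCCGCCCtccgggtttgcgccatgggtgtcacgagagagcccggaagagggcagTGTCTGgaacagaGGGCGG
The windows lie at chr2:31470020-31470269 on the plus strand, chr12:17544623-17544872 on the plus strand and chrX:155216450-155216699 on the minus strand. Motifs were searched on both strands, with no overlap between them. The E-box CACGTG occurred once, in Ass1, 36 bases before the start, and is held by 6.02% of 32841 windows of that length. The SMAD-binding letters CAGACA occurred once, in Sat1, 19 bases before the start, and are held by 17.1% of windows. The GC box CCGCCC occurred 1, 4 and 2 times in Ass1, Odc1 and Sat1 and is held by 32.7% of windows. Neither TGGGAA, the core bound by the Notch partner RBPJ (21.6% of windows), nor the LXR-type repeat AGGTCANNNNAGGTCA (0.0152%) was in these 3 windows.

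Across the 104 libraries the members covered very different ranges, although levels from different tables were normalized apart and stand side by side only. Sat1 was the most abundant, from 42.9 to 1005 TPM with a median of 438 TPM. Asl ran from 4.58 to 73.2 TPM, Odc1 from 1.56 to 56.1 TPM and Ass1 from 0.814 to 36.4 TPM. Arg1 ran from 0 to 100.4 TPM and Arg2 from 0 to 74.5 TPM. Both arginases had medians under 2 TPM, and each was abundant in only some of the groups. Nos2 never exceeded 1.05 TPM, was listed at 0 in 45 of 104 libraries, and was not tested in any comparison because no library reached the 4 TPM required. Its highest group mean, 0.777 TPM, was that of macrophages 12 h after toxin, where it rested on 27 and 41 reads.

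During niche refilling Arg2 rose late, and Odc1 was higher than in monocytes from 12 h on but fell between 72 and 168 h. Arg1 was higher than in monocytes in every liver group, all of which carried hepatocyte RNA. Differences below are log2 values of TPM with 1 added, ± the moderated standard error from limma, which understate the change of low genes. A gene was called at an adjusted p below 0.05 over all 11373 genes tested and at least a 2-fold difference. Of the 6 members tested, 4 were called higher in Kupffer cells than in monocytes, and 3, 4, 2, 3, 3 and 3 were called higher at 12, 24, 48, 72, 168 and 336 h. The corresponding shares of all genes called higher were 19.2% in Kupffer cells and 12.5%, 17.7%, 20.6%, 21.4%, 16.2% and 16.0% at the 6 times. At no time was a member called lower than in monocytes. All 7 comparisons share the monocyte libraries.

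**Figure D1:**
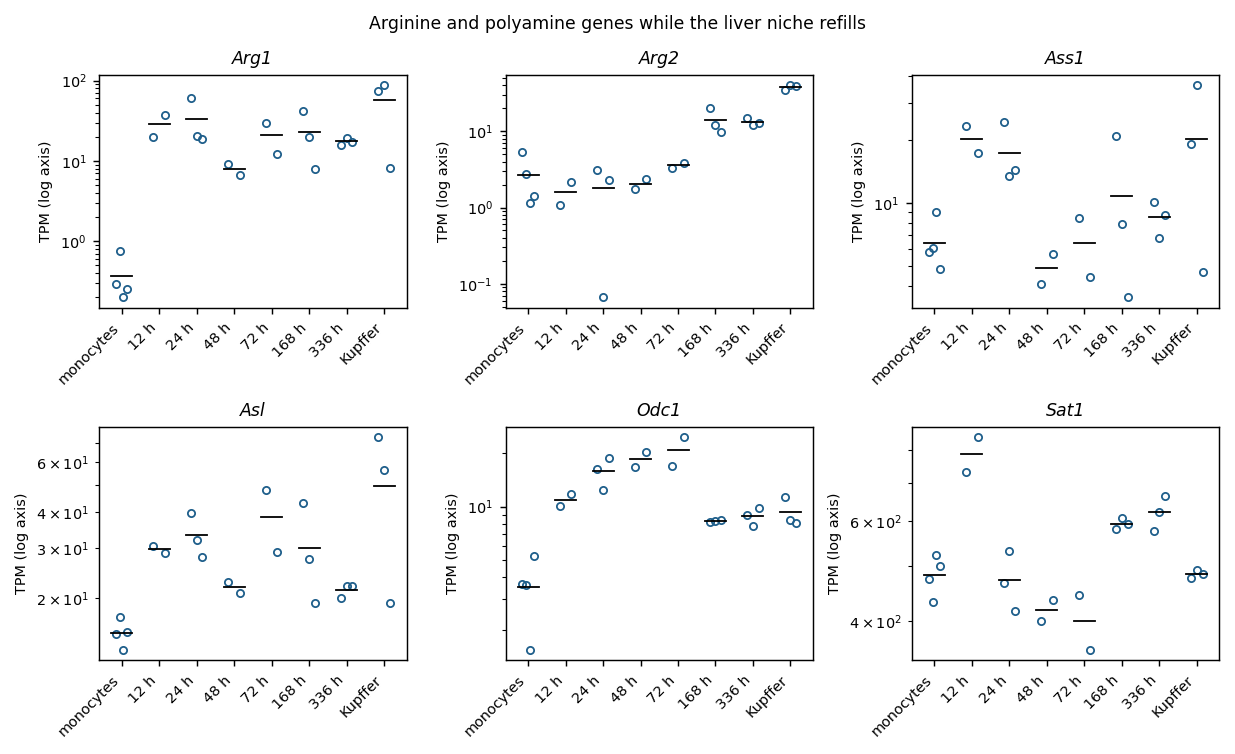
TPM of 6 members in each library (points) of blood monocytes, repopulating liver macrophages 12 to 336 h after toxin and Kupffer cells, on log axes, with bars at group means. Arg2 lies at 0.066 to 3.88 TPM from 12 to 72 h and at 35.2 to 40.3 TPM in Kupffer cells, whereas Arg1 spreads from 8.23 to 87.8 TPM among Kupffer cell libraries alone.

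Arg2, the mitochondrial arginase, was called against monocytes at 168 and 336 h and in Kupffer cells, and rose between 72 and 168 h. Its level was 5.36, 2.76, 1.14 and 1.41 TPM in the 4 monocyte libraries, 11 to 53 reads each. It stayed between 0.066 and 3.88 TPM from 12 to 72 h, then was 20.5, 12.0 and 9.83 TPM at 168 h and 14.8, 12.2 and 12.7 TPM at 336 h. Kupffer cells held 35.2, 40.3 and 39.1 TPM, above every refilling library. Apart from the monocyte library of 5.36 TPM, Arg2 reached 4 TPM at 168 and 336 h and in Kupffer cells alone. Arg2 thus entered the tests mainly through the groups where it is high. Against monocytes Arg2 was higher at 168 h by 2.12 ± 0.40 (limma adjusted p = 0.00014), at 336 h by 2.09 ± 0.40 and in Kupffer cells by 3.55 ± 0.40 (adjusted p = 2.7e-07), and it was not called at 12 to 72 h. The step from 72 to 168 h was 1.65 ± 0.47 (limma adjusted p = 0.012). With the summed TPM of 15 hepatocyte markers as a log2 covariate the differences from monocytes were of about the same size but less precise. They were 3.63 ± 1.26 in Kupffer cells (limma adjusted p = 0.0404), 2.19 ± 1.17 at 168 h (0.191) and 2.16 ± 1.17 at 336 h (0.186), so the calls at 168 and 336 h were lost.

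Arg2 was lower than in Kupffer cells at every time. The difference was -3.93 ± 0.47 at 12 h, -4.01 ± 0.42 at 24 h, -3.69 ± 0.47 at 48 h, -3.09 ± 0.47 at 72 h, -1.43 ± 0.42 at 168 h (adjusted p = 0.022) and -1.47 ± 0.42 at 336 h (adjusted p = 0.02). Arg2 was the single member called lower at 12, 24, 72, 168 and 336 h, and 1 of 2 at 48 h, where 13.7%, 7.83%, 4.31%, 2.72%, 2.89% and 8.19% of all genes were called lower. These 6 comparisons share the Kupffer cell libraries. The calls at 168 and 336 h were lost at a pseudocount of 0.25 (adjusted p 0.105 and 0.103). At 168 h the adjusted p was 0.0696 without 168 h replicate 2, 0.0899 without 168 h replicate 3 and 0.0642 without Kupffer cell replicate 2. At 336 h it was 0.0628 without 336 h replicate 2, 0.0579 without 336 h replicate 3 and 0.0626 without Kupffer cell replicate 2. The 72 to 168 h step was lost at a pseudocount of 0.25 (adjusted p = 0.0576), without either 72 h library (0.076 and 0.0548) and without 168 h replicate 1 (0.0547).

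Arg1, the cytosolic arginase and the urea cycle enzyme of hepatocytes, was near 0 in monocytes and present in every liver library. It was 0.291, 0.745, 0.199 and 0.254 TPM in monocytes, 2 to 9 reads each. It was 20.1 and 37.2 TPM at 12 h, 59.9, 20.5 and 18.6 TPM at 24 h, 9.13 and 6.72 TPM at 48 h, 29.8 and 12.3 TPM at 72 h, 41.6, 20.1 and 7.92 TPM at 168 h and 15.7, 19.5 and 17.1 TPM at 336 h. Kupffer cells held 75.1, 87.8 and 8.23 TPM, the widest spread of any group in this experiment. Arg1 was higher than in monocytes by 2.70 ± 0.73 at 48 h to 4.87 ± 0.64 in Kupffer cells and was called in all 7 comparisons. Arg1 reached 4 TPM in the liver libraries alone, so it entered the tests through the groups where it is high. At 48 h it was also lower than in Kupffer cells by -2.16 ± 0.77 (limma adjusted p = 0.025), a call that was lost without either 48 h library (0.0645 and 0.128) or without Kupffer cell replicate 1 or 2 (0.0967 and 0.111).

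The level of Arg1 followed hepatocyte RNA in some groups and not in others. The 15 hepatocyte markers summed to 2265, 1713 and 516 TPM at 24 h, to 276 and 257 TPM at 48 h, to 2203 and 1168 TPM at 72 h and to 3424, 1409 and 778 TPM at 168 h, in the library order given for Arg1, and at these times the 2 orders were the same. They summed to 1716 and 466 TPM at 12 h, where Arg1 was higher in the library with less hepatocyte RNA, and to 1652, 1387 and 1573 TPM at 336 h, where the highest Arg1 was in the lowest of the 3. In Kupffer cells they summed to 6504, 5046 and 487 TPM, with Arg1 far lower in the last library and somewhat higher in the second than in the first. Per 1000 TPM of that sum, Arg1 was 9.53 to 17.4 TPM in all 11 libraries of the 72, 168 and 336 h times and Kupffer cells. It was 11.7 and 79.8 TPM per 1000 at 12 h, 12.0 to 36.1 at 24 h and 26.1 and 33.1 at 48 h. With the log2 marker sum as a covariate, Arg1 differed from monocytes by -2.11 to -0.93 in the 7 comparisons, each opposite in sign to the value without it. The monocyte sums lie below all liver sums, so that fit extends the relation past the liver libraries. The 3 genes whose log2 levels were most like Arg1 over these 22 libraries, among 9059 genes ranked, were the fibrinogen chain Fgg (r = 0.96), the apolipoprotein Apoc4 (r = 0.959) and Mat1a (r = 0.955), all known as hepatocyte genes. These r values are across libraries that share hepatocyte RNA, and are a description. In these bulk libraries more cells of a type and more RNA per cell cannot be told apart.

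The arginine-remaking enzymes differed from monocytes at some times. Ass1, which joins citrulline to aspartate, was 5.82, 6.09, 9.06 and 4.84 TPM in monocytes, 23.1 and 17.3 TPM at 12 h and 24.3, 13.4 and 14.3 TPM at 24 h. By 48 h it was 4.12 and 5.68 TPM, within the monocyte range or below it, and Kupffer cells spread from 4.71 to 36.4 TPM. Its calls at 12 h (1.52 ± 0.58, limma adjusted p = 0.029) and 24 h (1.28 ± 0.51, adjusted p = 0.031) rest on few libraries and were lost without the low-value filter (adjusted p 0.0539 and 0.0563). At 12 h the adjusted p was 0.05 without monocyte replicate 1, 0.0591 without monocyte replicate 4, and 0.153 and 0.0756 without either 12 h library. At 24 h it was 0.0563, 0.0529 and 0.0689 without monocyte replicate 1, 2 or 4 and 0.125 without 24 h replicate 1.

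Asl, which releases arginine, was 13.2 to 17.1 TPM in monocytes and 73.2, 56.5 and 19.2 TPM in Kupffer cells, a difference of 1.46 ± 0.32 (limma adjusted p = 0.00058) with no overlap. It was 39.8, 32 and 28 TPM at 24 h (1.08 ± 0.32) and 47.8 and 29.1 TPM at 72 h (1.25 ± 0.37), and it was not called at the other times. The difference at 24 h fell under 2-fold without 24 h replicate 1 (0.95), and that at 72 h was 0.91 without 72 h replicate 1 (adjusted p = 0.102). The highest and lowest Kupffer cell libraries of Asl were those with the highest and lowest hepatocyte marker sums. With the marker sum as a covariate both genes reversed, to -4.28 to -2.69 for Ass1 at 12, 24, 168 and 336 h and in Kupffer cells and to -2.82 to -1.79 for Asl in all 7 comparisons. The part of hepatocyte RNA in the uncorrected differences was not tested beyond this covariate.

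Odc1, the entry enzyme of polyamine synthesis, was called higher than in monocytes at every time and in Kupffer cells, as was Arg1. Monocytes held 3.65, 3.59, 1.56 and 5.24 TPM. The level was 10.1 and 11.8 TPM at 12 h, 16.3, 12.3 and 18.9 TPM at 24 h, 16.7 and 20.3 TPM at 48 h and 17.0 and 24.5 TPM at 72 h. It was lower again at 168 h (8.16, 8.29 and 8.41 TPM), and at 336 h (8.96, 7.79 and 9.80 TPM) and in Kupffer cells (11.3, 8.36 and 8.12 TPM) it lay close by. No liver library overlapped the monocytes. The difference from monocytes grew from 1.47 ± 0.25 at 12 h to 2.32 ± 0.25 at 72 h and was 1.11 ± 0.22 at 168 h, 1.19 ± 0.22 at 336 h and 1.24 ± 0.22 in Kupffer cells. With the hepatocyte marker sum as a covariate the Odc1 calls at 24, 48 and 72 h were kept. Those at 12 h (1.50, limma adjusted p = 0.0851), 168 h (1.15, 0.229) and 336 h (1.23, 0.185) and in Kupffer cells (1.28, 0.199) were lost at about the same difference. Quantile normalization took the differences at 168 h (0.92) and in Kupffer cells (0.99) under 2-fold.

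The fall of Odc1 from 72 to 168 h was -1.21 ± 0.27 (limma adjusted p = 0.0022), and at 72 h Odc1 exceeded Kupffer cells by 1.08 ± 0.27 (adjusted p = 0.0042). Arg2 and Odc1 were the members called between 72 and 168 h, 1 higher and 1 lower, where 2.37% and 5.79% of all genes were called in those directions. The fall was -0.96 (adjusted p = 0.0521) without 72 h replicate 2, and the excess over Kupffer cells was 0.83 (adjusted p = 0.088) without that library and 1.00, just under 2-fold, without Kupffer cell replicate 3. That excess was the 1 member called higher than Kupffer cells at any time, where 6.64% of genes were called higher. Without monocyte replicate 3, the lowest library, the differences of Kupffer cells, 168 h and 336 h from monocytes were 0.99, 0.86 and 0.94, under 2-fold at adjusted p of 7.7e-05, 0.000364 and 0.000149. None of the steps from 12 to 24, 24 to 48, 48 to 72 or 168 to 336 h held a called member, where 6.16%, 4.26%, 0.422% and 0.0703% of genes were called in either direction.

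Sat1, which acetylates spermidine and spermine, was not called against monocytes or Kupffer cells at any time. It was 432 to 523 TPM in monocytes, 732 and 841 TPM at 12 h, 356 to 665 TPM at all later times and 476, 493 and 484 TPM in Kupffer cells. The 12 h libraries were above all others of this experiment, with a difference from monocytes of 0.70 ± 0.11 (limma adjusted p = 2.6e-05) that did not reach 2-fold.

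By the same measure, Kcnj16 (r = 0.938) and Sipa1l1 (r = 0.937) were among the 3 genes most like Arg2 over the 22 libraries. Those most like Odc1 were Drg2 (r = 0.96), Tmx2 (r = 0.96) and Mrpl2 (r = 0.959), and Sat1 had no gene above Noct (r = 0.858). For Ass1 the Gm5424 entry, which shares its reads, came first (r = 1.0), followed by Hal (r = 0.766), and for Asl the coagulation factor F12 and Serpina3n (both r = 0.926) did, all 3 made by hepatocytes.

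Of 41 further genes of the pathway, 34 were tested, and 11 to 17 were called higher and 1 to 4 lower than in monocytes at the 6 times, against 15 higher and 4 lower in Kupffer cells. Over all genes 12.7%, 15.8%, 16.8%, 15.7%, 12.8% and 14.8% were called lower at the 6 times and 16.0% in Kupffer cells, beside the shares called higher given above. Their median difference was 0.81 in Kupffer cells and 1.02 at 48 h, against medians of -0.06 and 0.09 over all genes tested. Slc3a2, the heavy chain that carries arginine and other amino acid transporters to the membrane, averaged 27.7 TPM in monocytes, 178 TPM at 12 h and 234 TPM in Kupffer cells. Gatm, which spends arginine on creatine synthesis, averaged 5.10 TPM in monocytes, 64.7 TPM at 24 h and 182 TPM at 72 h. Spermidine synthase, Srm, was higher at 12 h than in monocytes, 51.2 against 7.42 TPM (2.64 ± 0.31). Aldh18a1, the first enzyme from glutamate towards ornithine and proline, was higher at 72 h, 48.9 against 5.97 TPM (2.83 ± 0.22).

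Early macrophages also differed from Kupffer cells in these genes. Slc7a1, the main cationic amino acid importer of many cells, averaged 17.7 TPM at 12 h against 1.76 TPM in Kupffer cells (2.76 ± 0.23). Azin1, which frees Odc1 from its antizyme inhibitor, averaged 52.9 against 11.6 TPM (2.10 ± 0.16). Cps1, the hepatocyte enzyme that feeds the urea cycle, was listed at 0 in monocytes and averaged 4.13 TPM at 48 h, the lowest liver group in hepatocyte RNA, and 73.5 TPM in Kupffer cells. At 336 h none of the 34 genes was called against Kupffer cells, where 3.82% of all genes were called in either direction.

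Macrophage activation genes were called in both directions. Of 8 genes linked to alternative activation, 4 were called higher and 2 lower in Kupffer cells than in monocytes. Ccl24, a chemokine for eosinophils, and the mannose receptor Mrc1 averaged 162 and 801 TPM in Kupffer cells against 0.402 and 12.7 TPM in monocytes, whereas Chil3, a chitinase-like protein, averaged 0.764 against 1177 TPM. Of 8 classical activation genes, 6 were tested, with 2 called higher and 1 lower. The shares over all genes in this comparison were 19.2% higher and 16.0% lower.

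Arg2 was lower in Kupffer cells labelled knockout for Nr1h3, which encodes the sterol receptor LXR-alpha. The deletion was not visible in the level of Nr1h3 in these libraries. Arg2 was 23.5 and 32 TPM in control TIM4+ cells, 1.50 and 2.23 TPM in TIM4+ cells labelled knockout and 0.397 and 1.06 TPM in TIM4- cells labelled knockout, the last 5 and 15 reads. The groups did not overlap. The difference was -3.32 ± 0.23 (limma adjusted p = 4e-05) in TIM4+ and -4.07 ± 0.23 (adjusted p = 8e-06) in TIM4- cells. Arg2 reached 4 TPM in the control Kupffer cells alone, so it entered the tests through the group where it is high, and both differences were also called without the low-value filter. Arg2 was 1 of 1 member called lower in TIM4+ cells and 1 of 2 in TIM4- cells, where 1.29% and 1.96% of 10558 genes were called lower, and both comparisons share the control libraries. With the hepatocyte marker sum as a covariate the differences were -3.33 and -4.06. The 6 Kupffer cell markers summed to 17080 and 16840 TPM in controls, 7853 and 8568 TPM in TIM4+ and 5481 and 5497 TPM in TIM4- cells labelled knockout, and their part in the Arg2 difference was not tested.

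Arg1 was not called in the TIM4+ cells. It was 15.6 and 7.70 TPM in controls, 10.9 and 7.04 TPM in TIM4+ and 5.03 and 4.59 TPM in TIM4- libraries labelled knockout. Its difference in TIM4- cells was -1.05 ± 0.31 (limma adjusted p = 0.035). It was lost without control replicate 1 (-0.58, adjusted p = 0.173), without either TIM4- library (0.09 and 0.117) and without the low-value filter (0.0765), and the hepatocyte sums of the 2 controls were 1047 and 297 TPM. Ass1 (2.70 to 5.70 TPM), Asl (17.1 to 24.9 TPM), Odc1 (6.87 to 8.30 TPM) and Sat1 (576 to 739 TPM) were not called in any of the Kupffer cell comparisons. Between TIM4- and TIM4+ cells labelled knockout 0 members were called, where 0.597% of genes were called.

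**Figure D2:**
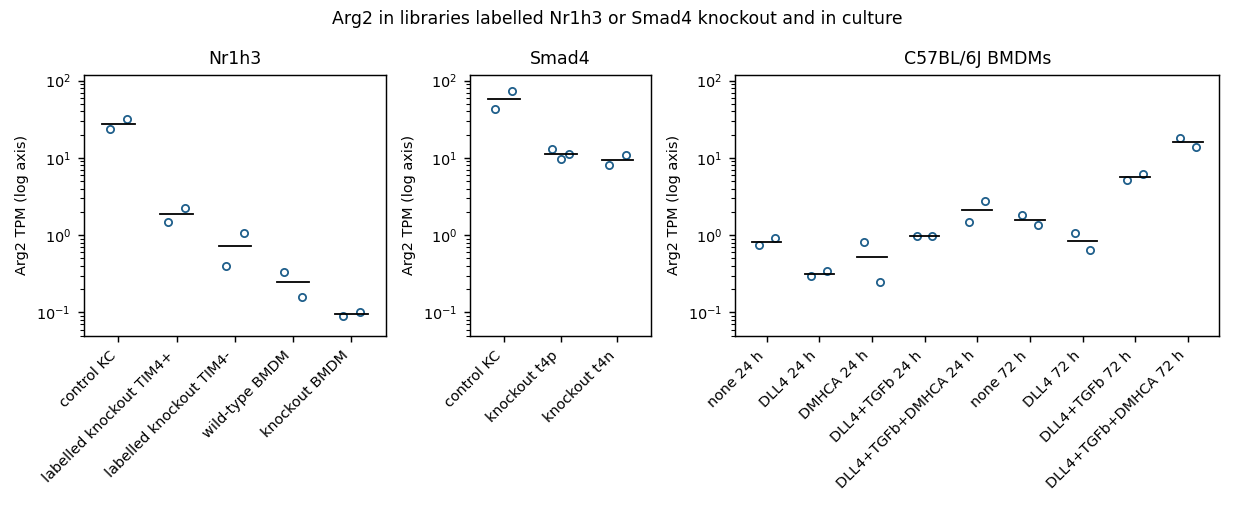
Arg2 TPM per library (points) with bars at group means, in the Nr1h3 and Smad4 experiments and in C57BL/6J BMDMs, each panel from its own table. Control Kupffer cells lie at 23.5 to 74.5 TPM and Kupffer cells labelled knockout at 0.397 to 13.1 TPM, and in culture DLL4 with TGF-beta and DMHCA reached 18.2 and 13.9 TPM at 72 h.

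Of 31 pathway genes tested, 1 was called higher and 2 lower in each of the Kupffer cell groups labelled knockout, where 1.57% and 2.2% of all genes were called higher in TIM4+ and TIM4- cells. Slc7a2, an arginine importer, averaged 3.55 TPM in controls and 14.9 and 22.6 TPM in TIM4+ and TIM4- cells labelled knockout (1.81 ± 0.08 and 2.38 ± 0.08). Aldh18a1 averaged 22.7, 6.66 and 6.34 TPM (-1.63 ± 0.14 and -1.69 ± 0.14). Gatm averaged 441 TPM in controls and 206 TPM in each labelled knockout group (-1.10 ± 0.06 in both).

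BMDMs held other levels of the same genes. Arg2 was 0.332 and 0.159 TPM in wild-type BMDMs, and Ass1 was 36.1 and 35.5 TPM there against 18.1 and 16.7 TPM in knockout BMDMs. The Ass1 difference was -1.0 ± 0.19 (limma adjusted p = 0.042), just under 2-fold, and was called when BMDMs were fitted alone or when recovered reads were tested (-1.04). Arg1 was 15.9 and 11.4 TPM in wild-type and 3.48 and 5.00 TPM in knockout BMDMs, without overlap but at an adjusted p of 0.058. The BMDM comparison thus held 0 called members, where 0.417% of genes were called in either direction.

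Control Kupffer cells exceeded wild-type BMDMs in Arg2 by 4.52 ± 0.23 and in Sat1 by 3.40 ± 0.06, with Sat1 at 615 and 576 against 55.0 and 55.8 TPM. They were lower in Ass1 by -2.77 ± 0.19 and in Odc1 by -1.83 ± 0.06, with Odc1 at 7.25 and 6.87 against 27.4 and 27.8 TPM. These 2 higher and 2 lower calls stand beside 20.6% and 15.9% of all genes. The difference of libraries labelled knockout from controls in TIM4+ Kupffer cells departed from that in BMDMs for Arg2 by -3.14 ± 0.33 (limma adjusted p = 0.00067) and for Ass1 by 1.13 ± 0.27 (adjusted p = 0.03), where 1.15% and 2.96% of genes were called in those directions. The Arg2 difference was not called on recovered reads (limma-voom adjusted p = 0.134), with BMDM levels resting on 2 to 10 reads. The Ass1 difference was lost without the low-value filter (adjusted p = 0.0666), under quantile normalization (0.0678), and without any BMDM library (0.0829 to 0.11) or labelled knockout TIM4+ replicate 1 (0.0737). It was 0.81 without control Kupffer cell replicate 2 and 0.97 with the hepatocyte covariate.

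Smad4 deletion in Kupffer cells, which removes the shared partner of the TGF-beta and BMP receptor SMADs, was also accompanied by lower Arg2. Arg2 was 42.9 and 74.5 TPM in controls, 13.1, 9.79 and 11.2 TPM in t4p and 8.11 and 10.8 TPM in t4n libraries, and no knockout library reached a control. The differences were -2.23 ± 0.25 in t4p and -2.47 ± 0.28 in t4n cells (limma adjusted p = 0.012 for both). Arg2 was the 1 member called in each, where 0.372% and 0.865% of 9946 genes were called lower, and the comparisons share the controls. Without control replicate 2, the higher control, the differences were -1.84 (adjusted p = 0.103) and -2.08 (0.0863). The t4p call was also lost without t4p replicate 3 (0.064) and the t4n call without t4n replicate 1 (0.0814). With the hepatocyte marker sum as a covariate the differences were -2.14 and -2.64. The 6 Kupffer cell markers summed to 15370 and 15930 TPM in controls, 7870 to 10620 TPM in t4p and 3592 and 5435 TPM in t4n libraries. The 5 monocyte markers summed to 13.7 and 9.48 TPM in controls, 7.66 to 9.64 TPM in t4p and 34.0 and 33.4 TPM in t4n libraries. The part of these sums in the Arg2 difference was not tested. The titles of 1 t4p and 1 t4n library share an identifier.

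The other members were not called with Smad4 deleted. Arg1 was 16.6 and 14.4 TPM in controls and 8.65 to 37.6 TPM in the knockout groups. Its highest value came from t4p replicate 2, the library with the highest hepatocyte sum, 3466 TPM. Ass1 was 3.46 to 16.3 TPM, Asl 18.0 to 28.3 TPM, Odc1 2.88 to 7.27 TPM and Sat1 391 to 503 TPM over the 7 libraries. None of 26 pathway genes tested was called in either deletion group. The t4n and t4p cells differed in 0 called members, where 0.0503% of all genes were called.

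In liver endothelial cells, sorted by the sinusoidal scavenger receptor STAB2, the arginases were near 0, Arg1 at 3.06 TPM or less and Arg2 at 0.701 TPM or less. Ass1 was 7.79 and 8.74 TPM in STAB2-low cells, 0.884 and 2.40 TPM in intermediate and 1.30 and 0.938 TPM in high cells. The low libraries stood above the other 4. Ass1 reached 4 TPM in the low libraries alone, so it entered the tests through the group where it is high, and both calls below were also made without the low-value filter. The difference was 2.13 ± 0.36 against high cells (limma adjusted p = 0.0059) and 1.87 ± 0.36 against intermediate cells (adjusted p = 0.013), the 1 member of 4 tested called in each, where 8.09% and 6.42% of 10576 genes were called higher. The endothelial markers summed to 8334 and 9243 TPM in low and to 18010 to 20660 TPM in the other cells, and their part was not tested. The call against intermediate cells was lost without intermediate replicate 210 (adjusted p = 0.0593), and without either STAB2-low library Ass1 no longer passed the low-value filter, so neither was tested. Intermediate and high cells differed in 0 called members, where 0.00946% of genes were called. Asl (4.58 to 8.55 TPM), Odc1 (4.22 to 6.75 TPM) and Sat1 (45.8 to 101 TPM) were not called in any of the 3 comparisons. The Sat1 range lay below every liver macrophage library of the other tables, which were normalized apart.

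Of 27 pathway genes tested in STAB2-sorted cells, 7 were called higher and 2 lower in low than in high cells, where 8.09% of all genes were called higher and 5.54% lower. Atp13a3, a polyamine transporter, averaged 311 TPM in low, 78.1 TPM in intermediate and 2.56 TPM in high cells (6.45 ± 0.50 for low against high). Gatm averaged 45.7 TPM in low and 480 TPM in high cells (-3.37 ± 0.09).

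In cultured BMDMs Sat1 rose with the Notch ligand and Ass1 rose with TGF-beta. Sat1 in Smad4 control BMDMs was 182 and 169 TPM untreated, 499 and 488 TPM with DLL4 and 207 and 217 TPM with DLL4 and DAPT. The DLL4 libraries stood apart from both. The rise with DLL4 was 1.48 ± 0.17 and the fall on adding DAPT -1.21 ± 0.17, each the 1 member of 4 tested called in that comparison, where 2.89% of 10267 genes were called higher with DLL4 and 1.75% lower with DAPT. No member was called between DLL4 with DAPT and untreated cells, where 0.312% of genes were called.

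Sat1 rose with DLL4 in Smad4 knockout cells too. Knockout BMDMs held Sat1 at 191 and 173 TPM untreated, 412 and 422 TPM with DLL4 and 243 and 209 TPM with DLL4 and DAPT. The rise was 1.19 ± 0.17 there (2.21% of genes called higher), and the difference in response between genotypes was not called, as for all other genes tested (0.0% called). DAPT on DLL4 gave -0.89 in knockout cells, within 2-fold, where 1.82% of genes were called and its genotype difference again called 0.0%. Knockout cells with DLL4 and DAPT against untreated held 0 called members beside 0.166% of genes. DLL4 added to TGF-beta raised Sat1 to 702 and 754 TPM in control cells (1.50 ± 0.17) and 514 and 490 TPM in knockout cells (1.18 ± 0.17), where 3.49% and 2.02% of genes were called higher.

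Odc1 had the opposite sign with DLL4, within 2-fold. It was 28.7 and 35.8 TPM untreated and 16.4 and 15.3 TPM with DLL4 in Smad4 control BMDMs (-0.98, limma adjusted p = 0.0012), and a pseudocount of 0.25 took it past 2-fold (-1.01). Untreated knockout cells held 17.4 and 18.0 TPM, below the untreated controls by -0.82 (adjusted p = 0.0098), and no member was called there beside 1.13% of genes. Over all comparisons of this experiment, differences between responses left out, 21 differences of further pathway genes were called. In these comparisons 0.166% to 8.8% of all genes were called in either direction. Srm, the spermidine synthase, averaged 56.0 TPM untreated and 24.0 TPM with DLL4 (-1.19 ± 0.26), where 1.17% of all genes were called lower. Paox, the oxidase that acts on acetylated polyamines, averaged 5.51 TPM untreated, 20.1 TPM with DLL4 (1.70 ± 0.12) and 7.83 TPM with DLL4 and DAPT (-1.25 ± 0.12), and it rose with DLL4 in knockout cells too (1.47 ± 0.12).

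Ass1 was 1.49 and 1.08 TPM in untreated control BMDMs and 8.23 and 4.68 TPM with TGF-beta, without overlap. The difference was 1.67 ± 0.31 (limma adjusted p = 0.0008), the 1 member called where 2.61% of genes were called higher. Outside the groups with TGF-beta, Ass1 reached 4 TPM only in a control library with DLL4 (4.43 TPM). Ass1 thus entered the tests mainly through the groups where it is high. With DLL4 present it was 1.56 and 4.43 TPM without TGF-beta and 9.13 and 8.33 TPM with it (1.38 ± 0.31, 2.62% of genes called higher), and 0.84 without DLL4 replicate 1. In knockout cells Ass1 was 2.01 and 1.88 TPM untreated and 3.92 and 5.64 TPM with TGF-beta (0.96, adjusted p = 0.098). It was 3.12 and 2.88 TPM with DLL4 and 3.85 and 5.98 TPM with both (0.54). These knockout comparisons held 0 called members, where 0.545% and 0.799% of genes were called. The genotype differences in response, -0.71 and -0.84, were not called, beside 1.2% and 2.23% of genes.

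Over the 20 libraries of this experiment, among 8117 genes ranked, those most like Odc1 were Zmynd19 (r = 0.992), Lrrc59 (r = 0.988) and Gart (r = 0.987), and those most like Sat1 were Tbc1d8 (r = 0.98), Rnf149 (r = 0.98) and Ddit4 (r = 0.979). Those most like Ass1 were Lrch1 (r = 0.909), Dok3 (r = 0.908) and Tgfbi (r = 0.904), the last named for its induction by TGF-beta.

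TGF-beta in these cultures was also followed by Arg1 at 8.59 and 3.79 TPM in control cells against 0.722 and 0.397 TPM untreated, and at 1.36 and 1.71 TPM in knockout cells against 0.693 and 0.849 TPM. With DLL4 present Arg1 was 0.178 to 0.290 TPM without TGF-beta and 0.264 to 0.298 TPM with it in control cells. In knockout cells it was 0.232 to 0.253 TPM and 0 to 0.205 TPM. The 2 control libraries with TGF-beta alone also stood apart in Arg2 (1.60 to 7.57 TPM), Sat1 (192 to 341 TPM) and Odc1 (12.8 to 24.1 TPM). Arg1 and Arg2 were too low to be tested in this table. Gatm averaged 76.6 TPM untreated and 480 TPM with TGF-beta in control BMDMs (2.63 ± 0.07) and 60.3 and 136 TPM in knockout BMDMs (1.16 ± 0.07). Of all genes, 2.61% and 0.506% were called higher there.

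**Figure D3:**
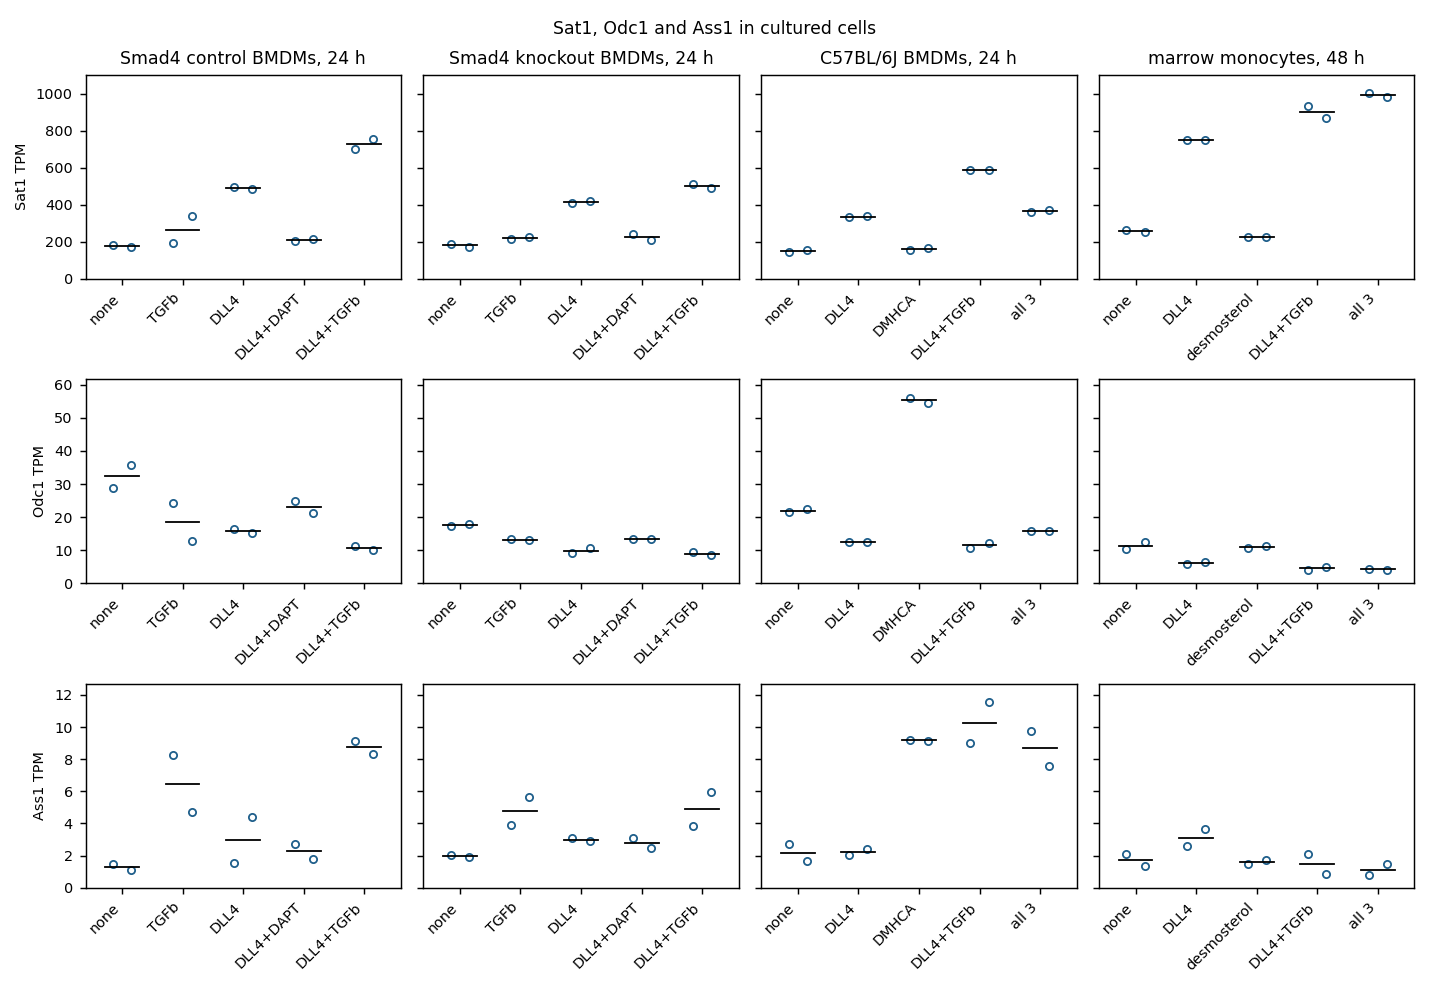
TPM of Sat1 (top), Odc1 (middle) and Ass1 (bottom) in each cultured library (points, bars at means of 2), on linear axes from 0, for Smad4 control and knockout BMDMs, C57BL/6J BMDMs at 24 h and marrow monocytes at 48 h. Sat1 is above 330 TPM in every condition with DLL4 and without DAPT and at most 341 TPM in the others, and Odc1 stands at 56.1 and 54.5 TPM with DMHCA alone.

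In C57BL/6J BMDMs Sat1 again rose with DLL4, Ass1 with TGF-beta, and Odc1 and Ass1 with the sterol ligand. At 24 h Sat1 was 143 and 158 TPM untreated and 334 and 338 TPM with DLL4 (1.15 ± 0.05), the 1 member of 5 tested called, where 2.22% of 10908 genes were called higher. Ass1 was 2.04 and 2.41 TPM with DLL4 and 9.01 and 11.6 TPM with DLL4 and TGF-beta (1.80), the 1 member called beside 2.31% of genes. The libraries did not overlap in either comparison. Outside the groups with TGF-beta or DMHCA, Ass1 reached 4 TPM only in a library with DLL4 at 72 h (4.07 TPM). Ass1 thus entered the tests here, too, mainly through the groups where it is high. The macrophage markers summed to 25850 and 28590 TPM untreated and 25770 and 26260 TPM with DLL4.

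DMHCA alone raised Odc1 and Ass1. Odc1 was 21.5 and 22.5 TPM untreated and 56.1 and 54.5 TPM with DMHCA (1.29 ± 0.12), the highest Odc1 group of the series. Ass1 was 2.70 and 1.68 TPM untreated and 9.21 and 9.13 TPM with DMHCA (1.69 ± 0.17), and Sat1, at 154 and 166 TPM, was within 0.09 of untreated. The 2 members of 5 stand beside 2.61% of genes called higher. The 10 neutrophil markers summed to 2263 and 2789 TPM in untreated cells and 322 and 308 TPM with DMHCA, and the 7 macrophage markers to 25850 and 28590 TPM against 13470 and 14060 TPM. Their part in these differences was not tested.

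With DMHCA added to DLL4 and TGF-beta, Ass1 was not called at 24 h. It was 9.01 and 11.6 TPM before and 9.78 and 7.59 TPM after, with overlapping libraries. No member was called there beside 1.23% of genes, with Sat1 at 586 and 587 TPM before and 364 and 369 TPM after (-0.68). The DMHCA effect on Ass1 differed between the 2 settings by -1.91 ± 0.24, the 1 member called, where 3.72% of genes were called lower. Adding DLL4 and TGF-beta to DMHCA was followed by Odc1 at 15.7 and 15.8 TPM (-1.75), Sat1 at 364 and 369 TPM (1.19) and Arg2 at 1.49 and 2.79 TPM against 0.812 and 0.246 TPM (1.03). These 2 higher and 1 lower calls stand beside 7.98% and 9.35% of genes, and the Arg2 difference was 0.76 without DMHCA replicate 2 and 0.73 without replicate 2 of all 3 signals.

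At 72 h Arg2 rose with TGF-beta on DLL4 and again with DMHCA. It was 1.82 and 1.36 TPM untreated, 1.06 and 0.642 TPM with DLL4, 5.12 and 6.26 TPM with DLL4 and TGF-beta and 18.2 and 13.9 TPM with DMHCA added. Each addition to DLL4 gave libraries above all of the previous ones. TGF-beta on DLL4 raised Arg2 by 1.86 ± 0.23 and Ass1 by 1.15, the 2 members of 5 called beside 4.02% of genes called higher. Arg2 reached 4 TPM in the 2 groups with DLL4 and TGF-beta at 72 h alone, and its calls were also made without the low-value filter. From DLL4 to DLL4 with TGF-beta the macrophage markers went from 9268 and 9123 to 15940 and 15590 TPM, the 12 liver endothelial markers from 116 and 115 to 224 and 244 TPM and the 8 stellate cell and fibroblast markers from 66.3 and 72.2 to 147 and 156 TPM. DMHCA on both raised Arg2 by 1.34 ± 0.23 (limma adjusted p = 0.00054), the 1 member called beside 0.642% of genes, while Ass1 differed by -0.66. The neutrophil markers summed to 7561 and 7543 TPM before DMHCA and 2430 and 2243 TPM after it. The part of these marker sums in either step was not tested.

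The TGF-beta effect on Arg2 was larger at 72 than at 24 h by 1.27 ± 0.32 (limma adjusted p = 0.011), the 1 member called where 4.04% of genes were called higher. That difference was not called at a pseudocount of 0.25 (0.0706) or by limma-voom (0.292), with 4 to 16 reads of Arg2 in the 24 h libraries concerned. Kupffer cells of the other tables held 23.5 to 74.5 TPM of Arg2 in controls, a level that no cultured library reached, although values across tables were normalized apart. Sat1 at 72 h was 227 and 221 TPM untreated and 349 and 343 TPM with DLL4 (0.62), and no member was called beside 1.73% of genes. Gatm rose with DMHCA on DLL4 and TGF-beta at both times, from 89.8 to 234 TPM at 24 h (1.37 ± 0.06) and from 18.5 to 105 TPM at 72 h (2.44 ± 0.06). Of all genes, 0.44% and 0.642% were called higher there. Over all comparisons of this experiment, differences between responses left out, 18 differences of further pathway genes were called. In these comparisons 1.23% to 17.3% of all genes were called in either direction. Untreated cells of 72 and 24 h differed in 0 called members, where 13.8% of genes were called. The effects of DLL4, and of DMHCA on DLL4 and TGF-beta, differed between the times for 0 members, where 1.67% and 3.47% of genes were called.

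In marrow monocytes Sat1 reached its highest levels of the series. It was 264 and 253 TPM untreated, 748 and 752 TPM with DLL4, 225 and 223 TPM with desmosterol, 935 and 868 TPM with DLL4 and TGF-beta and 1005 and 986 TPM with all 3. The libraries with DLL4 stood apart from those without it. The rise with DLL4 was 1.53 ± 0.04, the 1 member of 3 tested called, where 9.1% of 10234 genes were called higher. Arg1, Arg2 and Nos2, at most 2.19, 1.97 and 0.099 TPM, and Ass1 were too low to be tested here. Ass1 was 1.37 to 2.09 TPM untreated, 2.60 to 3.64 TPM with DLL4 and 0.859 to 2.08 TPM with DLL4 and TGF-beta. Ass1 thus showed no rise with TGF-beta in these cells. Odc1 was 10.2 and 12.5 TPM untreated and 5.85 and 6.48 TPM with DLL4 (-0.78), and Asl 28.2 and 30.6 against 21.5 and 19.6 TPM (-0.49), both within 2-fold. With DLL4 the macrophage markers summed to 8250 and 8517 TPM against 25720 and 25360 TPM untreated and the neutrophil markers to 173 and 158 TPM against 637 and 611 TPM, and their part was not tested.

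No member was called for desmosterol alone, TGF-beta on DLL4, desmosterol on both, or the difference between the desmosterol effects, where 0.244%, 8.81%, 0.205% and 0.166% of genes were called. Of the 27 pathway genes tested, 4 were called higher and 6 lower with DLL4, with a median of -0.68 against -0.05 over all genes, of which 10.4% were called lower. Azin1 averaged 87.8 TPM untreated and 25.3 TPM with DLL4 (-1.76 ± 0.05), and Pts, an enzyme of the nitric oxide synthase cofactor tetrahydrobiopterin, 20.7 and 69.1 TPM (1.69 ± 0.07). DMHCA and desmosterol were given to different cells for different times, so their values stand side by side only. Odc1 was 10.5 and 11.2 TPM with desmosterol, beside 10.2 and 12.5 TPM untreated, whereas in BMDMs it was 56.1 and 54.5 TPM with DMHCA beside 21.5 and 22.5 TPM.

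Blocking Notch in the animal during refilling was accompanied by lower Arg1 with either agent. Arg1 was 100.4 and 93.7 TPM in the LY411575 controls and 34.6, 35.0 and 40.3 TPM with the inhibitor. It was 66.2 and 34.8 TPM in the antibody controls and 10.8, 14.8, 11 and 31 TPM with the antibodies. Treated and control libraries did not overlap in either experiment. The differences were -1.38 ± 0.38 (limma adjusted p = 0.018) and -1.59 ± 0.36 (adjusted p = 0.015), and the difference between them, 0.20, was not called, although it was with the hepatocyte covariate given below.

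Hepatocyte RNA moved differently in the 2 experiments. The 15 markers summed to 528 and 542 TPM in the LY411575 controls and 1081, 1083 and 1094 TPM with the inhibitor, but to 4687 and 2139 TPM in the antibody controls and 512, 1293, 710 and 2034 TPM with the antibodies. Arg1 thus fell with LY411575 while the hepatocyte sum was higher. Per 1000 TPM of that sum Arg1 was 173 and 190 TPM in the LY411575 controls, 32 to 36.9 TPM with the inhibitor, 14.1 and 16.3 TPM in the antibody controls and 11.4 to 21.0 TPM with the antibodies. With the marker sum as a covariate the LY411575 difference was -2.12 ± 0.19 (limma adjusted p = 1.9e-05) and the antibody difference -0.37 (adjusted p = 0.45). Within each LY411575 group the sums hardly varied, so that fit took its slope almost wholly from the antibody libraries. Whether the slope holds for the LY411575 libraries was not tested. With the covariate the LY411575 difference minus the antibody difference had the opposite sign and was called, at -1.75 ± 0.34 (limma adjusted p = 0.0213). In the fit without the covariate, the LY411575 call for Arg1 was lost when either of its controls was left out. Without antibody control replicate 1 the antibody difference in that fit was -1.13 and was not called.

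Ass1 moved in opposite directions with the agents. It was 12.1 and 6.26 TPM in LY411575 controls and 22.6, 22.6 and 27.5 TPM with the inhibitor (1.36 ± 0.32, limma adjusted p = 0.0089). It was 28.3 and 19.6 TPM in antibody controls and 6.15, 10.5, 8.47 and 15.3 TPM with the antibodies (-1.21 ± 0.31, adjusted p = 0.026). The groups did not overlap, and the responses differed by 2.57 ± 0.45 (adjusted p = 0.0037), between animals described as female and male. Each Ass1 direction was that of the hepatocyte sum, and with that covariate the values were 0.83 (adjusted p = 0.0368), -0.32 (0.648) and 1.15 (0.274). Without LY411575 control replicate 2 the first was 0.94 (adjusted p = 0.114), and without antibody control replicate 1 or antibody replicate 3 the second was -0.95 (0.161) or -1.15 (0.065). The second was also lost without the low-value filter (0.0637).

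Of 5 members tested, 1 was called higher and 1 lower with LY411575 and 2 lower with the antibodies, where 3.73%, 2.65% and 1.4% of 9885 genes were called in those directions. The 1 member whose responses differed stands beside 3.55% of genes called higher. Sat1, which rose with DLL4 in culture, was 667 and 627 TPM in LY411575 controls and 483, 485 and 537 TPM with the inhibitor (-0.37, limma adjusted p = 0.004). It was 678 and 698 TPM in antibody controls and 435, 524, 469 and 476 TPM with the antibodies (-0.53, adjusted p = 0.00081). No treated library reached a control in either experiment, and neither difference reached 2-fold. The 5 monocyte markers summed to 984 and 974 TPM in LY411575 controls and 1700 to 1820 TPM with the inhibitor, and to 1026 and 812 TPM in antibody controls and 1050 to 1349 TPM with the antibodies. The Kupffer cell markers summed to 144 and 147 TPM and 38.7 to 42.4 TPM in the first experiment and to 33.2 and 37.1 TPM and 66.7 to 96.8 TPM in the second. The part of these marker sums in the members' differences was not tested. Odc1, at 9.57 to 18.3 TPM over the 11 libraries, was not called. Arg2 was not tested here, at 0.697 and 1.45 TPM in LY411575 controls and 2.80, 3.95 and 2.74 TPM with the inhibitor.

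Among 29 pathway genes tested, 3 were called higher and 1 lower with LY411575, and 1 lower with the antibodies. The shares over all genes in those directions were 3.73%, 2.65% and 1.4%. Gatm averaged 88.7 TPM in LY411575 controls and 18.1 TPM with the inhibitor (-2.24 ± 0.19), and Slc7a1 11 and 30.9 TPM (1.41 ± 0.18). The hepatocyte enzyme Cps1 went from 4.75 to 18.9 TPM with LY411575 (1.79 ± 0.45) and from 59.8 to 16.7 TPM with the antibodies (-1.77 ± 0.43).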

How the data were processed

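Poly(A) RNA was sequenced, per the labels' protocols, and the deposited values are TPM in 8 tables, which the authors made with HOMER analyzeRepeats over exons on mm10, with 1 entry kept per gene, per the file headers. Reads were mapped with STAR, per the submitters' processing notes, whose version, like that of HOMER, is not given in the sources used here. Groups follow titles and characteristics, and the titles were followed for the cultures titled 72 h, whose treatment label gives 24 h. Control libraries of the Notch blockade experiments carry the agent in a label, and their macrophages are labelled C57BL/6J where the series description names the Clec4f-Cre/DTR strain.

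The members, the 41 pathway genes, the activation lists and the marker lists were chosen with earlier results of these data known. Whole reads could be recovered from 100% of the values at or under 20 reads, to within 0.1 read, and genes with few reads are less precise in the shallower libraries. Of 69 replicate pairs, 0 were identical. Tests used limma 3.58.1 under R 4.3.3, with 1 model per table and a mean per group, on log2(TPM + 1), for genes that reached 4 TPM in at least 2 libraries, with Benjamini-Hochberg adjustment over all genes tested in each comparison. The design has 57 comparisons and 11 differences between responses. The method was tested on simulated data. Python 3.11.15, pandas 2.3.3, numpy 2.4.6 and matplotlib 3.10.9 handled tables and figures.

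All 7 members are named throughout. Pathway and activation genes are given as counts and, by name, from the 6 called genes of each comparison with the largest difference and at least 10 TPM in the higher group. Genes most like a member are the 3 with the highest Pearson r of log2 levels, of which 1 for Arg2 is not reported here. Other settings were a pseudocount of 0.25, no low-value filter, quantile normalization, limma-voom on recovered reads, a replicate block, Kupffer cells or BMDMs alone and each library left out. A hepatocyte marker covariate was added after the data were seen.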

Additional observations from a re-analysis of the deposited data

Results flagged for a closer look

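The 7 members were examined in the 2 groups of 4 libraries, 14 cases in all, for 1 library standing apart from the rest. This happened in 2 cases, both in blood monocytes, and chance gives about 1 in 20. Arg1 in blood monocytes was 0.745 TPM in replicate 2 against 0.199 to 0.291 TPM in the other 3. Nos2 was 0.03 TPM in 1 monocyte library and 0 in the rest, which is a single read. With the rest at 0 any value above 0 is flagged, so the rate of 1 in 20 does not apply to Nos2.

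In 5 cases, responses differed between settings in a test of the difference itself. The difference of labelled Nr1h3 knockout from control in TIM4+ Kupffer cells minus that in BMDMs was -3.14 for Arg2 and 1.13 for Ass1. The effect of TGF-beta on DLL4 was larger for Arg2 at 72 than at 24 h in C57BL/6J BMDMs, by 1.27. The effect of DMHCA on Ass1 differed by -1.91 between cells given DLL4 and TGF-beta and cells given nothing else. The effect of LY411575 on Ass1 minus that of the DLL1 and DLL4 antibodies was 2.57, between experiments that also differ in the described sex of the animals.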

How the results depend on the processing

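Of 337 member differences tested 70 were called, 39 of these under every setting that keeps all libraries, 46 under every left-out library and 32 under all. All 21 reversals came with the hepatocyte marker sum as a covariate. Against monocytes in Kupffer cells and at 12, 24, 48, 72, 168 and 336 h, Arg1 became -1.50, -0.93, -1.23, -1.39, -2.02, -2.0 and -2.11 and Asl -2.12, -2.06, -2.11, -1.79, -2.07, -2.43 and -2.82. Ass1 became -3.90 in Kupffer cells and -2.69, -3.21, -4.26 and -4.28 at 12, 24, 168 and 336 h. Arg1 became 0.12 at 48 h against Kupffer cells and -1.75 for LY411575 minus antibodies, which was then called. That covariate left 1 member call and 3 pathway calls in the Notch blockade table against 4 and 5, counting treated against control and not the differences between responses, and the cause was not tested. BMDMs fitted alone gave 1 member call for Nr1h3 against 0.

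With each library left out, member calls ranged from 29 to 47 in the refilling table (32 with all, 47 without Kupffer cell replicate 3, the one lowest in hepatocyte RNA). They ranged from 4 to 7 for Nr1h3 (4 without control Kupffer cell replicate 1), from 0 to 2 for STAB2, from 0 to 2 for Smad4 in Kupffer cells and from 2 to 4 for Notch blockade (2 without LY411575 control replicate 2 or antibody control replicate 1). They ranged from 7 to 8 for Smad4 BMDMs and from 9 to 10 for C57BL/6J BMDMs, and stayed at 1 for marrow monocytes. Where 1 library remained in a group, its spread was taken from the other groups.

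Libraries with the same replicate number were not paired by the labels or by the check (same-number correlations of -0.26 to 0.34). In the STAB2 table the 3 sorts share 2 identifiers in their titles, and the same-identifier correlations were 0.0574 to 0.137, with 4 of 6 over 0.1. With a replicate block the counts of member calls were unchanged in every table fitted, and the Asl difference between LY411575 and antibodies passed the threshold at 1.10 (limma adjusted p = 0.00398). Quantile normalization moved the median over all genes by more than 0.1 (log2) in 10 comparisons, by at most 0.189, and the share of higher calls went from 24.37% to 39.91% for 336 h against Kupffer cells. It went from 72.06% to 58.38% for the Nr1h3 effect between Kupffer cells and BMDMs, from 71.27% to 61.12% for TGF-beta on DLL4 at 72 h and from 76.83% to 61.28% for its difference between times. It went from 62.45% to 50.94% for TGF-beta on DLL4 between Smad4 genotypes and from 27.05% to 37.83% in marrow monocytes, and it also moved by over 10 points where few genes were called, for 336 against 168 h (37.5% to 55.56%) and desmosterol on DLL4 and TGF-beta (61.9% to 73.33%). Arg1, Arg2 and Nos2 rest on fewer than 20 reads in many cultured libraries, where differences were not detectable at this depth.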
